A study of Mus musculus with 8 samples.

Results

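The subunits of respiratory complexes II, III, IV and V that are encoded in the nucleus were examined in kidneys of mice with a mutant Pus1 gene. The 39 genes were the listed ubiquitous subunits with a probe well above background in at least 4 of the 8 samples, each represented by its brightest such probe. They are 4 genes of complex II, 10 of complex III with Cycs, for cytochrome c, counted among them, 10 of complex IV and 15 of complex V. All 39 listed genes passed the filter, with all 8 samples above background, among 22123 items tested, where an item is a gene or, without a symbol, an unnamed transcript. The fat and muscle isoforms Cox7a1 and Cox8b are not among the 39.

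Kidneys came from 4 homozygous Pus1 mutant mice and 4 mice with wild-type Pus1, and each genotype held 2 males and 2 females. All mice were 14 to 16 weeks old and of strain C57BL/6J after 5 generations of backcrossing. RNA was taken from frozen cross sections of the whole organ, so every cell type of the kidney, and any tissue attached to it, contributed. The nature of the mutant allele was not given in the labels. Each of 4 two-colour Agilent arrays held 1 mutant and 1 wild-type kidney of the same sex and replicate number, with the mutant in Cy5 on arrays 1 and 3 and in Cy3 on arrays 2 and 4. Arrays 1 and 2 held the females and arrays 3 and 4 the males, so sex and the position on the single slide cannot be told apart.

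PUS1 modifies uridines of transfer RNAs to pseudouridine. It acts on transfer RNAs of the nucleus, cytoplasm and mitochondria, and in humans its loss causes a disease of muscle mitochondria and of red cell precursors. The respiratory chain passes electrons from NADH, through complex I, and from succinate, through complex II, to complex III, then through cytochrome c to complex IV, which reduces oxygen. Complexes I, III and IV pump protons as they do so, and complex V, the ATP synthase, uses the gradient to make ATP. Complex II is encoded entirely in the nucleus, whereas complexes III, IV and V each combine nuclear subunits with subunits made inside mitochondria. Kidney tubules, above all the proximal tubule and the thick ascending limb, are dense in mitochondria because they reabsorb solutes by active transport.

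Pus1 itself checked the genotype labels. Its normalized log2 intensity was 7.46, 7.49, 6.92 and 7.36 in the mutants of replicates 1 to 4, against 10.39, 10.34, 10 and 10.34 in the wild-type mice. The groups did not overlap, and the log2 ratio was -2.96 ± 0.075 (SE, limma adjusted p = 0.000414). Median spot intensities were 97 to 105 in Cy3 and 220 to 245.5 in Cy5, the local background 51 to 57 in Cy3 and 141 to 144 in Cy5, and 26914 to 30524 probes per sample were well above background. Nothing in the labels beyond the individual numbers says how the mice were related. The p-values rest on the spread between these samples, with the variance of each gene moderated by limma toward that of all items.

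The first question was whether any subunit gene differed between mutant and wild-type kidneys. None of the 39 passed the test (limma on the 4 array ratios, Benjamini-Hochberg adjusted p under 0.05), and the lowest adjusted p was 0.98. Over all items 6 of 22123 passed, or 0.0271%. At an unadjusted p under 0.05 there were 2 of the 39, Cyc1 and Cox6b1, and 986 of all items. Mutant values overlapped wild-type values in every one of the 39 genes.

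The fitted ratios were small and mostly positive. They were above 0 in 36 of the 39 genes (92.3%), against 48% of all items, with a median of 0.09 on the log2 scale, against -0.004 for all items. The range ran from -0.09 for Cox6a1 to 0.22 for Atp5a1, and no fitted difference was over 16.1%. The 95% intervals of single genes reached at most from -0.28 to 0.46, so for each of these genes a difference beyond those bounds lay outside its interval. The median was 0.10 in complex II, 0.09 in complex III, 0.09 in complex IV and 0.11 in complex V, and Uqcr10, Uqcr11 and Cox6a1 had the 3 ratios below 0.

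The ratios were highest on array 1. The median log2 ratio of the 39 genes was 0.27 on array 1, a female pair, against -0.02 on array 2, 0.03 on array 3 and 0.01 on array 4. The genes with a positive ratio numbered 31, 16, 22 and 24 on arrays 1 to 4. Without replicate 1 the median was 0.04 with 29 genes above 0, without replicate 3 it was 0.14, and with median normalization in place of loess it was 0.04 with 30 genes above 0. No setting made any of the 39 pass.

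**Figure D1:**
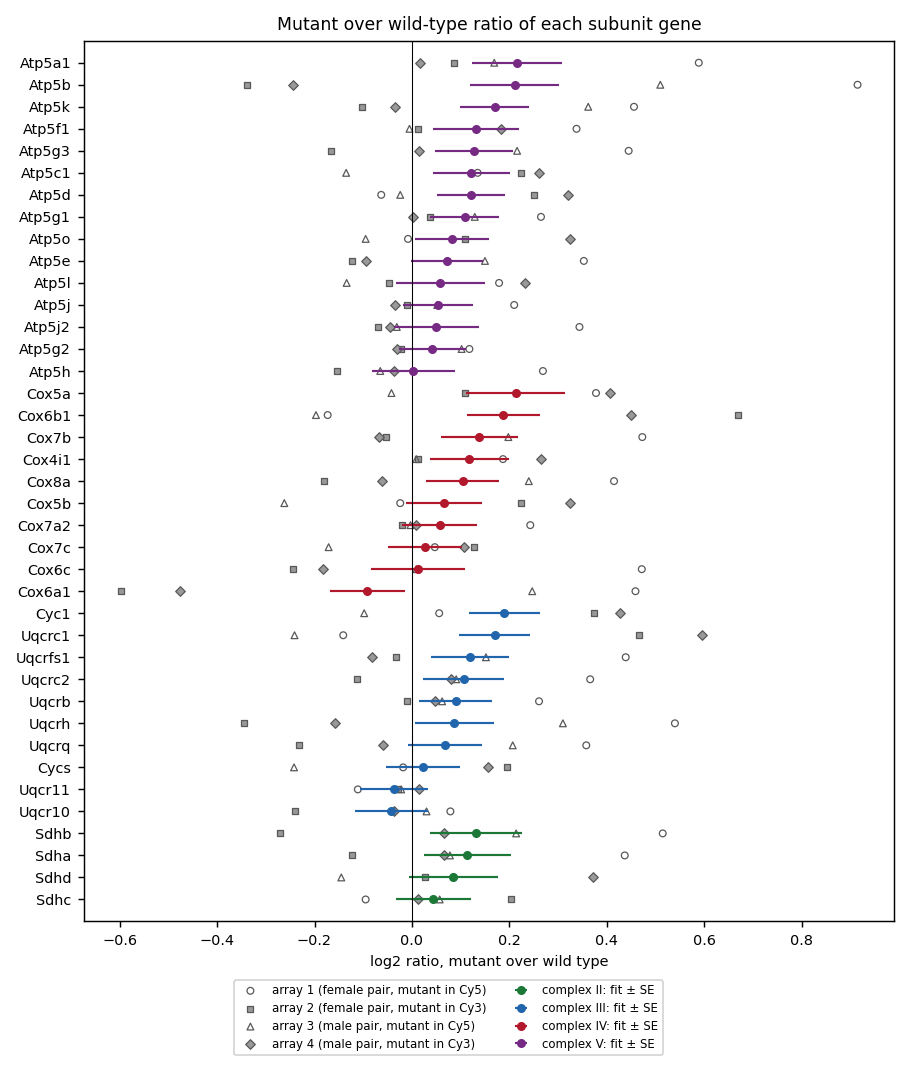
Log2 ratio of mutant over wild type for each of the 39 genes, grouped by complex and ordered by ratio. Grey symbols are the 4 arrays and coloured points the fitted ratio with its standard error; array 1 (open circles) lies furthest to the right for many genes, and fitted ratios stay between -0.09 and 0.22.

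In complex II, which oxidizes succinate, the highest ratio was that of Sdhb, the iron-sulfur subunit. Sdhb had log2 intensities of 17.14, 16.85, 16.67 and 16.56 in the mutants, against 16.62, 17.12, 16.46 and 16.49 in the wild-type mice. The mutant was above its wild-type partner in 3 of 4 pairs and below it in the second, and the ratio was 0.13 ± 0.095 (SE, n = 4 arrays, limma adjusted p = 0.98). Sdhc, a membrane anchor, had the lowest, with 14.98, 15.13, 14.96 and 14.91 in the mutants, against 15.07, 14.93, 14.90 and 14.89 in the wild-type mice. Its ratio of 0.04 ± 0.077 was smaller than its standard error. Sdha, the flavoprotein, and Sdhd, the other anchor, had ratios of 0.11 and 0.09.

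In complex III, which transfers electrons from ubiquinol to cytochrome c, Cyc1 stood highest. Cyc1 encodes cytochrome c1, the haem subunit that hands electrons on. It had 15.97, 16.05, 15.45 and 15.85 in the mutants, against 15.92, 15.68, 15.55 and 15.42 in the wild-type mice, and the pair of replicate 3 was the one with the mutant lower. The ratio was 0.19 ± 0.072 (limma unadjusted p = 0.0396, adjusted p = 0.98). Uqcr10, a small membrane subunit, had 16.74, 16.59, 16.47 and 16.47 in the mutants, against 16.66, 16.83, 16.44 and 16.51 in the wild-type mice. Its pairs were split 2 against 2 and its ratio was -0.04 ± 0.075. The core proteins Uqcrc1 and Uqcrc2 had 0.17 and 0.11, the Rieske iron-sulfur protein gene Uqcrfs1 had 0.12, and Cycs, for cytochrome c, had 0.02.

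In complex IV, cytochrome c oxidase, Cox5a and Cox6a1 were the extremes. Cox5a, which encodes a subunit on the matrix side, had 16.97, 16.87, 16.47 and 16.74 in the mutants, against 16.59, 16.77, 16.52 and 16.34 in the wild-type mice. The mutant was higher in 3 of 4 pairs, and the ratio was 0.21 ± 0.10 (limma unadjusted p = 0.0798). Cox6a1, the ubiquitous isoform of subunit VIa, had 18.95, 18.38, 18.49 and 18.09 in the mutants, against 18.49, 18.97, 18.24 and 18.56 in the wild-type mice. For Cox6a1 the Cy5 sample was the higher one on all 4 arrays, and the ratio was -0.09 ± 0.077. Its spot was saturated in Cy5 on arrays 1 and 2, in the mutant of replicate 1 and the wild-type mouse of replicate 2, which limits those values. Cox6b1, a subunit facing the intermembrane space, had 0.19 ± 0.076 (limma unadjusted p = 0.0478, adjusted p = 0.98).

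In complex V all 15 fitted ratios were above 0, from Atp5h to Atp5a1. Atp5a1 encodes the alpha subunit of the catalytic head, and it had 17.18, 16.96, 16.80 and 16.73 in the mutants, against 16.59, 16.87, 16.63 and 16.71 in the wild-type mice. The mutant was the higher one in all 4 pairs, by 0.59, 0.09, 0.17 and 0.02, and the fitted ratio was 0.22 ± 0.092 (limma unadjusted p = 0.0587). Only Atp5a1, Cox4i1 and Atp5g1 among the 39 had 1 sign on all 4 arrays. Atp5b, for the catalytic beta subunit, had a similar fitted ratio of 0.21 ± 0.091, with single-array ratios of 0.92, -0.34, 0.51 and -0.24. Atp5h, for subunit d of the peripheral stalk, had 17.29, 17.14, 16.71 and 16.73 in the mutants, against 17.03, 17.30, 16.77 and 16.76 in the wild-type mice, and a ratio of 0.00 ± 0.085.

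The ratios of the 39 genes varied with the dye that the mutant sample carried. In 13 genes, Atp5b, Uqcrh and Cox6a1 among them, the ratio was positive where the mutant was in Cy5 and negative where it was in Cy3, and in 6 genes, Cox6b1 and Uqcrc1 among them, it was the reverse. Across the 39 genes the ratios of arrays 1 and 3 correlated with Pearson's r = 0.81 and those of arrays 2 and 4 with r = 0.84, while pairs of arrays with opposite dyes gave -0.65 to -0.74. Over all items the same-dye pairs gave 0.14 and 0.35 and the opposite-dye pairs -0.21 to -0.40. These values are a description across genes, which share the arrays and are no independent replicates. The dye term of the fit passed for none of the 39 genes and for 2.17% of all items. That term takes up the common gap between dyes. The standard errors above thus rest on the spread that remains, moderated by limma toward that of all items.

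**Figure D2:**
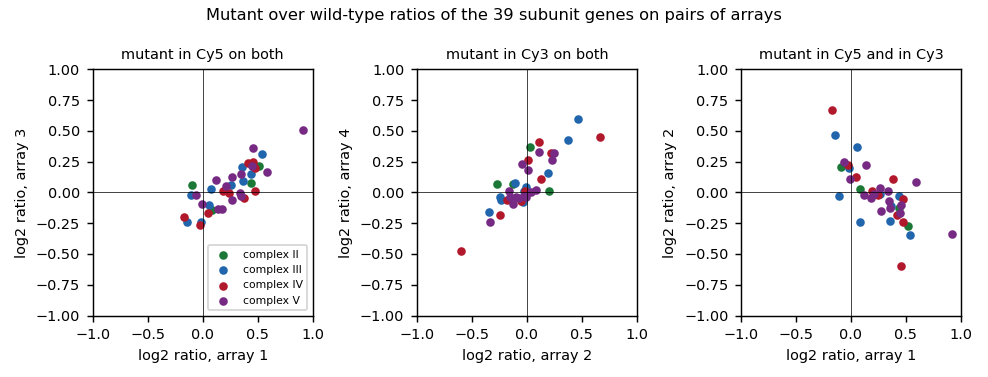
Log2 ratios of mutant over wild type for the 39 genes on 1 array against another, coloured by complex. Points climb to the right where the mutant carried the same dye on both arrays (r = 0.81 and 0.84) and fall where the dyes were opposite (r = -0.73).

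A further question was whether the ratio depended on sex. The difference of the ratios, male minus female pairs, passed for none of the 39 genes (limma adjusted p under 0.05) and for 31 of 22123 items, or 0.14%. None of the 39 had an unadjusted p under 0.05, against 844 of all items. The differences ran from -0.25 for Atp5a1 to 0.08 for Uqcr10, with a median of -0.06. Their median standard error over all items was 0.18, so the test could separate only large differences. The median was 0.07, with 30 genes above 0, without replicate 1, against 9 above 0 with all arrays. That fit held no dye term and left 1 female pair, with the mutant in Cy3. The change of direction therefore cannot be told apart from an effect of dye.

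Many of these genes differed between the sexes. Of the 39 genes 21 (53.8%) were lower in male than in female kidneys and none was higher (limma on the 4 array averages, adjusted p under 0.05). Over all items 25.8% were lower and 18% higher in males by the same test. Among the 2383 items at least as bright as the dimmest of the 39 genes, the share was 34.9%. The difference of male minus female was below 0 in 38 of the 39 genes, with a median of -0.28 on the log2 scale, against -0.10 for all items and -0.17 for the bright ones. With no scaling of the array averages the median was -0.51, against -0.15 for all items, and with the averages centred on their median it was -0.59, against -0.23. In bulk tissue, fewer cells of a type and less RNA per cell cannot be told apart.

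In complex IV all 10 genes passed as lower in males, with a median of -0.38 and a range from -0.63 to -0.27. That count was 7 with processed signals, with the deposited value table and with no filter on dim probes, where Cox5a, Cox5b and Cox7c were lost each time. It was 9 in the separate-channel fit, without Cox5a, and 9 with no scaling, without Cox6a1, and 0 to 7 without 1 replicate. In complex III, with cytochrome c, 4 of 10 passed, with a median of -0.26. Complex V had 6 of 15, with a median also of -0.26, and complex II had 1 of 4, with a median of -0.13. By the same test 25.8% of all items passed as lower, and 34.9% of those at least as bright as the dimmest of the 39 genes. The counts of complexes II, III and V lay near these shares. Whether the complexes differ from each other was not tested. All 4 male values lay below all 4 female values in 16 of the 39 genes (41%), against 25% of all items. Among the 2383 items at least as bright as the dimmest of the 39 genes, 775 were apart in this way. Across the 39 genes the sex difference and the mean log2 intensity correlated with Pearson's r = -0.39, so brighter genes tended to lower values in males.

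The sex calls rest on few arrays. They numbered 4 without replicate 1, 0 without replicate 2, 12 without replicate 3 and 15 without replicate 4, while the median stayed between -0.30 and -0.27. The share of all items called lower in males also fell without any 1 replicate. The calls among the 39 numbered 13 with no filter on dim probes, where 11.2% of all items were called lower. They numbered 38 with array averages centred on their median, where 41.3% of all items were called lower.

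**Figure D3:**
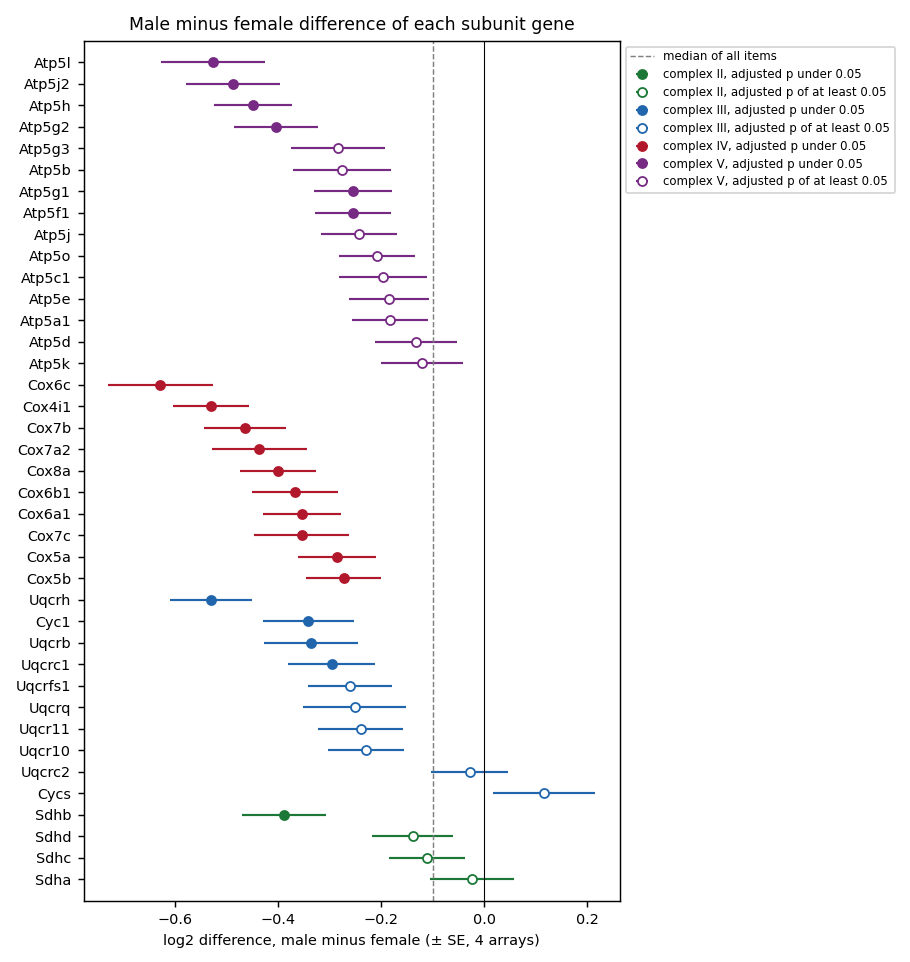
Male minus female difference in log2 intensity of each of the 39 genes with its standard error over 4 arrays; filled points had an adjusted p under 0.05. All complex IV genes are filled and left of the median of all items (dashed, -0.10), whereas Sdha, Uqcrc2 and Cycs lie near or right of 0.

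Cox6c, which encodes a small membrane subunit of complex IV, had the lowest value of all 39. It measured 16.88 and 16.88 in the male mutants and 16.88 and 17.06 in the male wild-type mice, against 17.69 and 17.53 in the female mutants and 17.22 and 17.78 in the female wild-type mice. Every male lay below every female, and the difference was -0.63 ± 0.10 (SE, n = 4 arrays, limma adjusted p = 0.00942). On the linear scale Cox6c signal fell by 35.3% in males relative to females. It was -0.73 within the mutants and -0.53 within the wild-type mice.

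Cox4i1, the ubiquitous isoform of subunit IV, whose product is among the first to join the core of the complex, had the lowest adjusted p of the 39 genes. Its values were 17.29 and 17.45 in the male mutants and 17.28 and 17.18 in the male wild-type mice, against 17.94 and 17.82 in the female mutants and 17.76 and 17.81 in the female wild-type mice. The sexes were apart without overlap, by -0.53 ± 0.075 (limma adjusted p = 0.00677). Cox7b, an X-linked gene, differed by -0.46 (limma adjusted p = 0.0109), Cox7a2 by -0.44 (0.0193) and Cox8a by -0.40 (0.013). Cox6b1, Cox6a1, Cox7c, Cox5a and Cox5b completed the 10, from -0.37 to -0.27.

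Uqcrh, the acidic hinge protein of complex III that helps cytochrome c dock, had the largest difference outside complex IV. It had 17.05 and 16.79 in the male mutants and 16.74 and 16.95 in the male wild-type mice, against 17.64 and 17.29 in the female mutants and 17.10 and 17.63 in the female wild-type mice. The sexes did not overlap, although the male mutant of replicate 3 was close to the female wild-type mouse of replicate 1, and the difference was -0.53 ± 0.079 (limma adjusted p = 0.00782). Cyc1, Uqcrb, a ubiquinone-binding subunit, and Uqcrc1 also passed, at -0.34, -0.34 and -0.30. Uqcrc2, the partner of Uqcrc1 in the core, had -0.03 ± 0.075 (limma adjusted p = 0.779).

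Cycs was the 1 gene of the 39 with a higher male value. Its values were 15.61 and 15.59 in the male mutants and 15.85 and 15.43 in the male wild-type mice, against 15.48 and 15.61 in the female mutants and 15.50 and 15.42 in the female wild-type mice. The sexes overlapped, and the difference of 0.12 ± 0.10 did not pass (limma adjusted p = 0.378).

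In complex V the differences ran from -0.53 for Atp5l to -0.12 for Atp5k. Atp5h had 16.71 and 16.73 in the male mutants and 16.77 and 16.76 in the male wild-type mice, against 17.29 and 17.14 in the female mutants and 17.03 and 17.30 in the female wild-type mice. The 4 males lay close together and below every female, by -0.45 ± 0.076 (limma adjusted p = 0.0106). The small membrane subunits g and f, from Atp5l and Atp5j2, differed by -0.53 (limma adjusted p = 0.0146) and -0.49 (0.0137). Atp5a1 and Atp5b, for the catalytic head, had -0.18 and -0.28, and Atp5c1, Atp5d and Atp5e, for the central stalk, -0.20, -0.13 and -0.18. None of these 5 passed. Atp5g1 (limma adjusted p = 0.0464) lay just inside the threshold and Atp5j, for coupling factor 6 (0.0504), just outside it.

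In complex II Sdhb was the 1 gene that passed. Sdhb differed by -0.39 ± 0.082 (limma adjusted p = 0.0186), with male values from 16.46 to 16.67 and female values from 16.62 to 17.14 that overlapped narrowly. Sdha had 15.22 and 15.31 in the male mutants and 15.14 and 15.24 in the male wild-type mice, against 15.50 and 15.16 in the female mutants and 15.07 and 15.28 in the female wild-type mice. The male values of Sdha lay inside the female range, and the difference was -0.02 ± 0.081 (limma adjusted p = 0.823). Sdhc and Sdhd had -0.11 and -0.14 and did not pass.

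**Figure D4:**
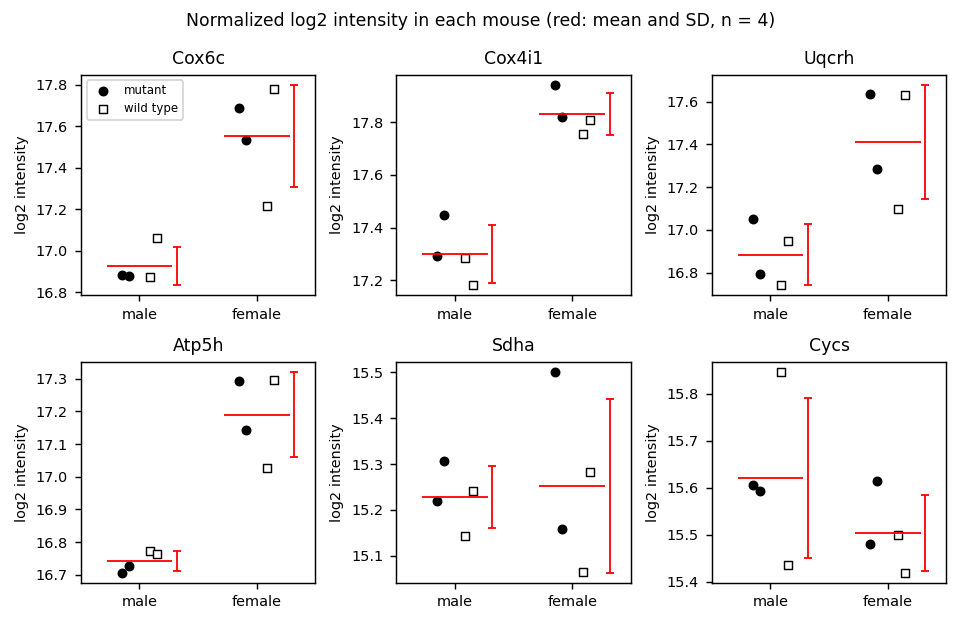
Normalized log2 intensity of 6 genes in each mouse, males left and females right; filled circles are mutants, open squares wild type, and red lines the mean and SD of 4 mice. Males lie below females in Cox6c, Cox4i1, Uqcrh and Atp5h, while the sexes overlap in Sdha and Cycs.

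The sex difference was mostly below 0 within each genotype. It was below 0 in 38 of the 39 genes within mutants, with a median of -0.31, and in 37 within wild-type mice, with a median of -0.27. These values come from 2 males and 2 females each and carry no test. The mean log2 level of the 39 genes was 16.16 and 16.19 in the male mutants and 16.12 and 16.11 in the male wild-type mice, against 16.55 and 16.45 in the female mutants and 16.29 and 16.46 in the female wild-type mice. All 4 males were below all 4 females in this mean.

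The 3 genes Atp5g1, Atp5g2 and Atp5g3 encode the same mature c subunit of the ATP synthase ring and differ in their import sequences. Atp5g1 had 16.68 and 16.64 in the male mutants and 16.55 and 16.64 in the male wild-type mice, against 17.04 and 16.87 in the female mutants and 16.77 and 16.83 in the female wild-type mice. Atp5g2 had 16.31 and 16.15 in the male mutants and 16.21 and 16.18 in the male wild-type mice, against 16.71 and 16.57 in the female mutants and 16.59 and 16.60 in the female wild-type mice. Atp5g3 had 17.04 and 16.96 in the male mutants and 16.83 and 16.95 in the male wild-type mice, against 17.37 and 17.23 in the female mutants and 16.92 and 17.40 in the female wild-type mice. The sexes were apart in Atp5g1 and Atp5g2 and overlapped in Atp5g3. The differences were -0.26 (limma adjusted p = 0.0464), -0.40 (0.0168) and -0.28 (0.0564), and differences between the 3 were not tested. Cross-hybridization between their probes was not tested either. A second Atp5g2 probe gave -0.18, which did not pass (limma adjusted p = 0.116). Their mutant ratios were 0.11, 0.04 and 0.13, and none passed.

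Genes close to Pus1 on chromosome 5 are inherited with the mutant allele more often than distant ones. Pus1 lies at chr5:110773667-110780649 in the mouse build GRCm38.p6. Within 10 Mb lay 2 of the 39 genes, Atp5k, for subunit e of complex V, at chr5:108433246-108434399 and Cox6a1 at chr5:115345652-115348958, or 2.34 and 4.57 Mb away. Atp5k had 16.62 and 16.37 in the male mutants and 16.80 and 16.44 in the female mutants, against 16.26 and 16.41 in the male wild-type mice and 16.35 and 16.55 in the female wild-type mice. Mutants overlapped wild-type mice, and the ratio was 0.17 ± 0.070 (limma unadjusted p = 0.0527, adjusted p = 0.98). Its second probe gave 0.20. The 39 genes lie on 17 chromosomes.

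Several genes could be read with more than 1 probe. For 16 of the 39 genes, with 39 probes, more than 1 probe passed the filter, and the probes of a gene had 1 sign in 15 genes for sex and in 13 for genotype. The exception for sex was Cycs, whose dimmest probe gave -0.004. Of 62 probes in all, 60 were lower in males, 34 passed as lower, none passed as higher, and none passed for genotype.

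The wider respiratory pathway was described from lists that hold the other genes around these 39. No gene of the complex I, assembly factor, tissue-specific subunit, tricarboxylic acid cycle or regulator lists passed for genotype. Complex I, which oxidizes NADH, had 33 of 36 mutant ratios above 0 and a median of 0.07, with Ndufa12 at -0.02. The tricarboxylic acid cycle had 15 of 19 above 0 and a median of 0.12, with Idh3b at 0.27 and Pcx at -0.06. Assembly factors had 17 of 29 above 0 and a median of 0.02, other and tissue-specific subunits 7 of 13 and 0.08, and regulators 9 of 15 and 0.02.

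By sex, 17 of 36 complex I genes were lower in males and none higher, with a median of -0.27. Ndufs8, an iron-sulfur subunit, was lowest at -0.75 (limma adjusted p = 0.00391). Of 13 measured other and tissue-specific subunits 9 were lower and none higher, with a median of -0.46. Atpif1, the inhibitor of ATP hydrolysis by complex V, differed by -0.81 (limma adjusted p = 0.00503), and Usmg5, a small subunit of complex V, by -0.62 (0.00573). In the tricarboxylic acid cycle 4 of 19 genes, Suclg1, Dld, Idh2 and Fh1, were lower and none higher, and the median was -0.06.

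Of 29 measured assembly factors 8 were lower and 3 higher in males, with a median of -0.21, and of 15 regulators of respiratory gene transcription 3 were lower and 2 higher, beside 25.8% lower and 18% higher over all items. The 3 higher ones were Lrpprc, which stabilizes mitochondrial messenger RNA, at 0.81 (limma adjusted p = 0.00349), Cox15, for haem A synthesis, at 0.60 (0.00497) and Sdhaf1, for complex II, at 0.28 (0.0451). Among the regulators Esrrb, Esrrg and Yy1 were lower, by -0.53, -0.47 and -0.38, and Gabpb2 and Ppargc1a, the coactivator PGC-1 alpha, were higher, by 0.75 and 0.44. The median of the regulators was 0.01. Nrf1 had 0.08 and did not pass (limma adjusted p = 0.579). The genes named here for sex were picked after their values were seen. For the 13 subunits encoded in mitochondria no probe was matched, and they were not analysed here.

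**Figure D5:**
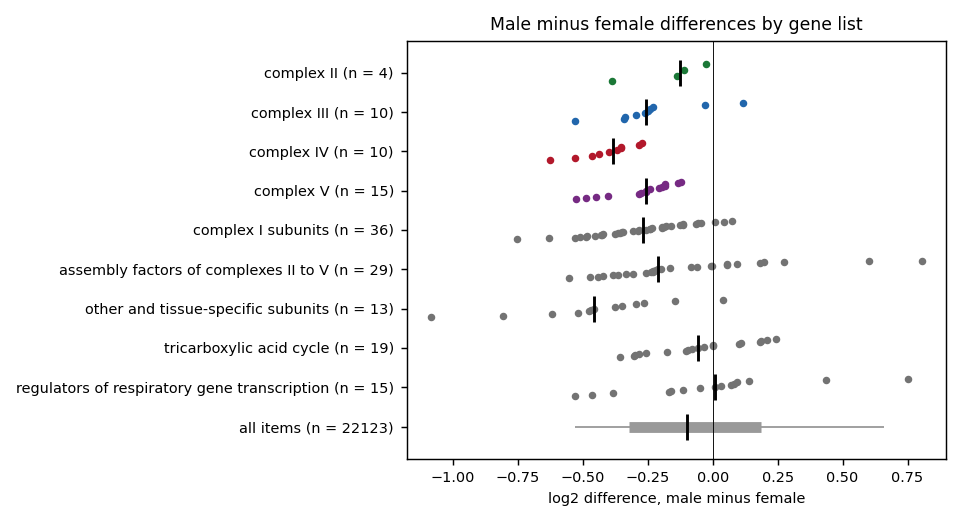
Male minus female differences in log2 intensity for the genes of each complex and of 5 related lists; each point is a gene and each bar the list median. The bottom row gives all 22123 items as the 25th to 75th percentile (thick, -0.32 to 0.19), the 10th to 90th (thin, -0.53 to 0.66) and the median, and complex IV (median -0.38) lies wholly below 0.

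Markers of kidney cell types were set beside the 39 genes by sex. Of 14 markers of the first proximal tubule segments 8 were lower in males and 1 higher, with a mean log2 level of 14.34 to 14.64 in males and 14.77 to 15.00 in females. Of 9 markers of the third segment 4 were lower and 3 higher, with a median of -0.37. Whether passing or not, 6 of these 9 differences were below 0. The mean level was 13.28 to 13.41 in males and 12.37 to 12.63 in females. That mean follows the markers with the largest differences, Slc7a13 at 7.92, Cyp7b1 at 5.40 and Slc7a12 at -4.07. Slc7a13 was above background in 4 of 8 samples, the fewest the filter allows. The higher male mean therefore does not describe the list as a whole. Podocyte markers (5 of 8 lower, 9.38 to 10.09 in males and 10.16 to 10.54 in females) had means without overlap between the sexes. So did endothelial markers (6 of 10 lower, 10.75 to 11.03 in males and 11.11 to 11.32 in females). Means were also apart for distal convoluted tubule markers, at 10.95 to 11.23 in males and 11.29 to 11.72 in females. The same held for lymphocyte markers (8.56 to 8.89 and 9.19 to 9.38) and erythroid markers (13.45 to 13.66 and 13.73 to 14.44). The count lower in males was 7 of 10 for macrophage and dendritic cell markers, 5 of 7 for lymphocyte markers and 4 of 7 for erythroid markers. It was 3 of 9 for the thick ascending limb, 4 of 8 for the distal convoluted tubule, 1 of 8 for principal cells and 2 of 7 for intercalated cells. It was 3 of 11 for fibroblasts and smooth muscle, 2 of 8 for brown fat, 0 of 8 for white fat and 0 of 11 for urothelium. Calls higher in males were 2 of 11 for fibroblasts and smooth muscle and 1 of 11 for urothelium. They were 1 of 9 for the thick ascending limb and 1 of 10 for macrophages and dendritic cells. Apart from the proximal tubule lists, the other lists had none. Over all items 25.8% were lower and 18% higher. The part of these cell types in the differences of the 39 genes was not tested.

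For genotype, markers of the distal convoluted tubule had all 8 measured ratios above 0, with a median of 0.21, at 11.20 to 11.72 in mutants and 10.95 to 11.46 in wild-type mice. Thick ascending limb markers had 8 of 9 above 0, with a median of 0.11, at 12.55 to 12.89 in mutants and 12.35 to 12.63 in wild-type mice. Ratios were above 0 in 0 of 11 urothelium markers (median -0.39) and 0 of 8 white fat markers (-0.29). They were above 0 in 1 of 11 fibroblast and smooth muscle markers (-0.10) and 1 of 7 erythroid markers (-0.30). Counts were 11 of 14 for the first proximal tubule segments (0.06), 8 of 10 for macrophages and dendritic cells (0.07) and 6 of 7 for lymphocytes (0.02). Brown fat markers, unlike those of white fat, had 6 of 8 above 0 (0.32). The third proximal tubule segment had 6 of 9 (0.06), endothelium 6 of 10 (0.02) and podocytes 4 of 8 (-0.01). Principal cells had 3 of 8 (-0.09) and intercalated cells 2 of 7 (-0.08). No marker of these lists passed for genotype. For sex by genotype 5 of 8 white fat, 1 of 8 brown fat and 1 of 11 fibroblast and smooth muscle markers passed. Over all items 31 of 22123 (0.14%) passed that test, and 0 with no dye term. Markers of a list share the arrays and are no independent replicates. Urothelium medians were -1.69, -1.42, 1.44 and -0.06 on arrays 1 to 4. Urothelium levels overlapped, at 8.67 to 9.99 in mutants and 8.27 to 10.34 in wild-type mice. The mean level of the white fat markers, with 8 of 9 measured, ranged from 10.71 to 12.31 in mutants and from 10.37 to 13.32 in wild-type mice, with median ratios of -1.70, -1.85, 1.79 and 0.41 on arrays 1 to 4. The median ratios of the 39 genes were 0.265, -0.022, 0.03 and 0.014 on the same arrays. Those of all items were 0.003, -0.022, 0.016 and -0.009. The part of these tissues in the genotype ratios was not tested.

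Promoters are shown because these genes were lower in males together. RefSeq promoter windows of build GRCm38.p6 were matched for 31 of the 39 genes, and the 250 bases before each start were searched on both strands for 3 motifs. These were GCGC followed by any base and TGCGC, bound by NRF1, CCGGAAG, bound by the ETS factor GABP, and AAGATGGC, bound by YY1, factors known from mammalian respiratory genes. The windows of Uqcrh and Atp5h are printed because they were among the 4 genes with the smallest p by sex, and those of Cox6a1 and Atp5k because they are neighbours of Pus1. They run 5′ to 3′ with motif letters of either strand in capitals, and no motif in them overlaps another.
Uqcrh, chr4:116075071-116075320, minus strand: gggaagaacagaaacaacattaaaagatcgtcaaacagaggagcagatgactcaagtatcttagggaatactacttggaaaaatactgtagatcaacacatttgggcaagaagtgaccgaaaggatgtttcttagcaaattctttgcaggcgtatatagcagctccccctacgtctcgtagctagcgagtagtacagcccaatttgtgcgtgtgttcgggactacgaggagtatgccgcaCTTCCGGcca
Atp5h, chr11:115419920-115420169, minus strand: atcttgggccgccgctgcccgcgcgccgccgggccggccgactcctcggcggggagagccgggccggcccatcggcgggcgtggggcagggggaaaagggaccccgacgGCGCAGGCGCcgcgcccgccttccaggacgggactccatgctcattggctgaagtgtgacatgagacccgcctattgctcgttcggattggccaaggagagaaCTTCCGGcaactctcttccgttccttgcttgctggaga
Cox6a1, chr5:115348959-115349208, minus strand: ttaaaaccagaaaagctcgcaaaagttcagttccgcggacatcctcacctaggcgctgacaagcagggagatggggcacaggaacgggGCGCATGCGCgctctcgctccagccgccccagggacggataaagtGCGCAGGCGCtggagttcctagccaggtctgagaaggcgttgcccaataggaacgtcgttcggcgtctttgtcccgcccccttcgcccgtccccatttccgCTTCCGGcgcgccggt
Atp5k, chr5:108434400-108434649, minus strand: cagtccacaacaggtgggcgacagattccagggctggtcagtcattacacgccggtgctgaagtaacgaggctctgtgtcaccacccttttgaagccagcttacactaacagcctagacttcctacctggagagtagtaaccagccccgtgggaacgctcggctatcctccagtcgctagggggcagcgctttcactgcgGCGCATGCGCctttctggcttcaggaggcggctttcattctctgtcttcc

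Uqcrh held the GABP motif, read on the opposite strand as the capitals show, 10 bases before its start. Atp5h held the NRF1 motif at 141 bases and the GABP motif at 38 bases. Cox6a1 held the NRF1 motif at 162 and at 117 bases and the GABP motif at 16 bases, and Atp5k the NRF1 motif at 50 bases. Among the 31 genes 7 (22.6%) held the NRF1 motif, against 3.74% of all 32851 windows of the same length. The GABP motif was in 9 (29.0%), against 6.91% of windows, and the YY1 motif in 1, Atp5j (3.23%), against 1.56%.

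Genes lower in males were found with and without each motif but that of YY1. Of the 7 genes with the NRF1 motif 3 were lower in males, against 14 of the 24 without it. Of the 9 genes with the GABP motif 5 were lower, against 12 of the 22 without it. A match is a run of letters and no measured binding.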

How the data were processed

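RNA of 8 mouse kidneys was read on 4 two-colour arrays. The deposited intensity values, per the file headers, are medians over the pixels of a spot and of its local background in both channels, from Agilent Feature Extraction version 10.7.3.1, per the submitters' processing notes. A processed signal and, in the authors' deposited value table, log2 values centred per probe served as alternatives. No source used here gives the authors' own tests.

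Background was corrected with normexp (offset 50) in limma 3.58.1 (R 4.3.3, data.table version 1.17.8), and ratios were normalized by loess, with control and outlier spots (191 to 252 per array) left out. Probes above background in at least 4 of 8 channels were kept, named by accession, and each gene took its brightest. This gave 22123 items, 14285 with a symbol. Levels per sample were also scaled with Aquantile. Symbols and coordinates come from RefSeq, build GRCm38.p6.

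Genotype was tested with limma on 4 log2 ratios with a dye term (2 residual degrees of freedom). Sex by genotype had 1 residual degree of freedom, and sex was tested on 4 array averages (2 residual degrees of freedom). Moderation over all items added prior degrees of freedom of 3.97 for genotype, 5.64 for sex by genotype and 3.02 for sex. All p-values were 2-sided and adjusted over all items at a threshold of 0.05. The fits were tested on simulated data. The shared array pairs the samples; deviations from the means of sex and genotype correlated by -0.267 in the female and 0.073 in the male pairs. The array's signal limits precision, with a median standard error of 0.081 for genotype and 0.092 for sex. Full values were printed for the highest and lowest genotype ratio of each complex, the 4 smallest p by sex, the neighbours of Pus1 and the Atp5g genes. The contrast genes Sdha and Cycs, also printed in full, were chosen after their values were seen. The 39 genes and all lists were chosen with earlier results of these data known. Figures used matplotlib 3.10.9 in Python 3.11.15.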

Additional observations from a re-analysis of the deposited data

How the results depend on the processing

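Genotype kept 0 of the 39 genes past the threshold under every alternative run, including without any single replicate; the genes above 0 ranged from 29 to 37 and the median from 0.04 to 0.14. Without a replicate block none passed, 4 had an unadjusted p under 0.05 and the median stayed at 0.09. Sex by genotype also stayed at 0, but the genes with a higher ratio in male pairs were 22 with median normalization and 9 to 30 when 1 replicate was left out, with medians from -0.206 to 0.073. For sex, the genes lower in males past the threshold were 13 with no dim filter, 25 with all 8 channels above background, 17 with processed signals and 17 with the value table, 25 in the separate-channel fit, 28 with no scaling, 38 with median-centred averages, and 0 to 15 when 1 replicate was left out. Leaving out a replicate leaves 1 residual degree of freedom, and the sex by genotype fit then holds no dye term. The median was -0.51 with no scaling and -0.591 with centring, where the median of all items moved to -0.152 and -0.232; relative to it the 39 genes lay at -0.358 and -0.359, against -0.175 with Aquantile. Of all calls by sex 59% were lower in males, and 73.7% with centring. Over all items 25.8% were called lower in males, 11.2% with no dim filter and 29.9% with all 8 channels above background. The share was 22.7% with processed signals, 22.6% with the value table, 28.8% in the separate-channel fit, 22.1% with no scaling and 41.3% with centring.

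Calls over all items varied. Genotype had 6, between 0 (processed signals, value table) and 10 (median normalization), and 1 to 3 without 1 replicate. Sex by genotype had 31, 0 with offset 16, processed signals, the value table, no dye term or no replicate block, 66 with no dim filter, 224 with median normalization and 0 to 81 without 1 replicate. Sex had 9681, and 2543 to 8550 without 1 replicate. The cause of these changes was not tested. Dim probes and the Cy5-saturated Cox6a1 spots limit the range of measurable differences.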

Other observations

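Among the subunit isoforms of complex IV that belong to fat and muscle, Cox8b varied most between arrays. Cox8b, the isoform of subunit VIII in brown fat and muscle, had log2 ratios of mutant over wild type of -1.33, 0.04, 5.99 and 1.29 on arrays 1 to 4. Ucp1, the uncoupling protein of brown fat, had -1.03, -1.32, 4.50 and 2.03 on the same arrays. Cox7a1, the muscle and brown fat isoform of subunit VIIa, had -0.22, 0.51, 0.64 and 1.10. Cox6a2, the muscle isoform of subunit VIa, had -0.19, 0.20, -0.30 and -0.47. None of the 4 passed for genotype (limma adjusted p = 0.98 for each). The ubiquitous partners Cox8a and Cox7a2 had fitted ratios of 0.10 and 0.06. The mean log2 level of 8 measured brown fat markers ran from 10.80 to 11.99 in mutants and from 9.49 to 12.28 in wild-type mice. Of these 8 markers 6 had a fitted ratio above 0, with Cpt1b at 0.02. The 2 below 0 were Dio2 at -0.535 and Otop1 at -0.26. Dio2 had -2.13, -0.64, 1.31 and -0.69 on arrays 1 to 4, and Otop1 was negative on all 4 arrays.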
